A study of Mus musculus with 47 samples.

Results

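NRF2, encoded by Nfe2l2, is the transcription factor that drives much of the cellular defence against oxidants. KEAP1 normally directs its degradation, and when reactive cysteines of KEAP1 are modified NRF2 accumulates and binds antioxidant response elements with small MAF proteins. Its target genes make glutathione (Gclc, Gclm), regenerate thioredoxin and peroxiredoxins (Txnrd1, Srxn1), break down haem (Hmox1) and reduce quinones (Nqo1). Superoxide is removed by Sod1 in the cytosol and Sod2 in mitochondria, and catalase (Cat) breaks down the hydrogen peroxide so formed. Working muscle makes such oxidants continuously. The levels of these transcripts were followed here in single fibres of a fast-twitch muscle with and without fast myosin binding protein C (fMyBP-C).

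The 10 genes Nfe2l2, Nqo1, Hmox1, Gclc, Gclm, Txnrd1, Srxn1, Sod1, Sod2 and Cat were taken by name from 24421 genes in the count tables. All 10 passed the filter on low counts, as did 12863 of the 17153 genes with any count. The samples were 20 C2KO and 27 WT fibres of the EDL (extensor digitorum longus, a hindlimb muscle of fast-twitch fibres) from FVB/N mice 2 to 3 months old. C2KO mice are null for Mybpc2, the fMyBP-C gene, in a germline line in which the study's methods describe a stretch of exons replaced by a Neo cassette between loxP sites. Each library held the RNA of 1 fibre freed with collagenase. The labels name 2 C2-/- and 3 WT mice and assign no fibre to a mouse, so the spread between fibres is not a spread between animals.

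Fibres were therefore summed into 5 pools. The C2KO fibres form pools 740 and 2445, named after the prefix of the fibre names, with 10 fibres each. Pool 740 drew on more than 1 sequencing run, whereas pool 2445 came from 1 run. The WT fibres form pools 1, 2 and 3 after their sequencing runs, with 10, 10 and 7 fibres. Run and genotype were nearly confounded, and 1 run alone held both, with 1 C2KO fibre and 7 WT fibres. Every fibre of pool 740 carried Y-linked transcripts and every fibre of pool 2445 carried Xist, while each WT pool held fibres of both kinds. Sex and prefix therefore cannot be told apart among C2KO fibres.

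Libraries held 7648762 to 10517887 gene counts in C2KO and 7769593 to 14606631 in WT. Mybpc2 ran from 2.62 to 47.6 counts per 1000000 gene counts (CPM) in C2KO fibres (median 26.1) and from 6563 to 11560 CPM in WT fibres (median 9479), apart from each other as the genotype labels have it in all 47 libraries. The summed fast-fibre transcripts (Myh4, Acta1, Ckm, Atp2a1 and 4 others) ran from 254700 to 337200 CPM in C2KO and from 275400 to 322900 CPM in WT, so they were abundant in every library. Myh4 alone ran from 53670 to 84210 CPM in C2KO and from 28820 to 78140 CPM in WT. No list of slow-fibre genes was set beside them. RNA of other cells came with some fibres. The 12 fibroblast transcripts taken as markers summed to 0.310 to 5237 CPM in pool 740, to 0.192 to 369.5 CPM in pool 2445 and to 0.381 to 387.5 CPM in WT, and the 17 macrophage transcripts to 10.4 to 100.8 CPM in C2KO and 10.4 to 189.2 CPM in WT. Much of the macrophage sum came from a single gene that is not reported here, and Lyz2, a macrophage gene, stood under 1 CPM in all 5 pools. Erythrocyte transcripts summed to under 1 CPM in every fibre. Of the marker genes tested (7 macrophage, 9 endothelial, 12 fibroblast, 4 mural, 5 satellite cell, 1 erythrocyte, 1 adipocyte and 8 fast-fibre), 0 were called in the comparison of genotypes, in which 0.0233% of all genes were called higher and as many lower. Estimates for fibroblast and endothelial genes nevertheless leaned towards C2KO. The median log2 fold change was 3.87 over 12 fibroblast markers, 12 of them positive, and 3.21 over 9 endothelial markers, 9 of them positive. Both C2KO pools lay above all WT pools for 2 of the 12 and 4 of the 9, beside 13.1% of all genes. Positive estimates numbered 4 of 7 macrophage, 2 of 4 mural, 3 of 5 satellite cell, 0 of 1 erythrocyte and 1 of 1 adipocyte markers. The median fibre held a fibroblast sum of 31.7 CPM in pool 740, 0.75 CPM in pool 2445 and 3.425 CPM in WT. Its endothelial sum was 1.84 CPM in pool 740, 0.64 CPM in pool 2445 and 0.88 CPM in WT. The highest endothelial sums were 119.7 CPM in pool 740, 8.66 CPM in pool 2445 and 5.08 CPM in WT. The part of this RNA in the results was not tested beyond leaving out the fibres richest in it.

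Sequence is given for the 250 bases before the RefSeq transcription start (GRCm38.p6) of 4 genes. Srxn1, Gclm and Txnrd1 varied together across fibres, and Cat did not follow them over all fibres of a genotype. Capitals mark the core letters of the antioxidant response element, TGACNNNGC on either strand, and the AP-1-type palindrome TGANTCA. A stretch can meet both, though none shown here does. For Txnrd1 the window shown is the 1 of its 3 that holds a match.
Srxn1 upstream, chr2:152105274-152105523, plus strand: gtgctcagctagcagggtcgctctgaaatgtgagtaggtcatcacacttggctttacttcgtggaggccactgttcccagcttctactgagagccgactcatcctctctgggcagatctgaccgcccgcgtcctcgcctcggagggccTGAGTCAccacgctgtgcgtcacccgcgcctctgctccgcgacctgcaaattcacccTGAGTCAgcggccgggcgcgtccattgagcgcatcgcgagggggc
Gclm upstream, chr3:122245307-122245556, plus strand: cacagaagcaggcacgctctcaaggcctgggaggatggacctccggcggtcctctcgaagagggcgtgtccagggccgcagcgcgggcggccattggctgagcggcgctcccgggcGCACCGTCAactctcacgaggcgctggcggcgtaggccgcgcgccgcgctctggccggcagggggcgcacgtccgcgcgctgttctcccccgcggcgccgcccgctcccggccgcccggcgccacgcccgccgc
Txnrd1 upstream, chr10:82858956-82859205, plus strand: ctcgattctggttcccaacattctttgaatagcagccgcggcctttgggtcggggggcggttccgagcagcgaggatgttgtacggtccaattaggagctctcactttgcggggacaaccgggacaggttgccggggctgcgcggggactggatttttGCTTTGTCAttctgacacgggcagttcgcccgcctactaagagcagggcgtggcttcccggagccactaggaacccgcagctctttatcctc
Cat upstream, chr2:103485154-103485403, minus strand: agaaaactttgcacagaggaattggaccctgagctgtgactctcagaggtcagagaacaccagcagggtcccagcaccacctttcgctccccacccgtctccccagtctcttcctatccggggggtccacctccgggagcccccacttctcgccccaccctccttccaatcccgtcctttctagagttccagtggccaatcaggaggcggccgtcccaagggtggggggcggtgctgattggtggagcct

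RefSeq gave promoters for 8 of the 10 genes, in 10 windows reaching 250 bases before to 50 after a start. Hmox1 and Gclc had no entry. The core TGACNNNGC was found in 5 of the 8 genes. It lay 134 bases before the start in Gclm as TGACGGTGC, 92 before in Txnrd1 as TGACAAAGC, 56 before in Sod1 as TGACCACGC and 240 before in Nfe2l2 as TGACTCCGC. In Srxn1 it was TGACCTAGC, 29 bases into the transcribed side and so outside the stretch shown. The windows of Nqo1, Sod2 and Cat held no match. Over all RefSeq promoters, 12.4% of 32851 windows and 13.99% of 27025 genes held this core. TGANTCA occurred at 2 places in Srxn1, as TGAGTCA 102 and 45 bases before the start, and in no other window of these genes, against 7.81% of all windows. These matches describe letters and say nothing of binding.

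None of the 10 genes was called between C2KO and WT pools. The test was edgeR's quasi-likelihood test over all genes with Benjamini-Hochberg adjustment, and calls needed both a fold above 1.5 and an adjusted p below 0.05. In this test 0.0233% of all genes were called higher in C2KO and 0.0233% lower, 3 genes each way, so few genes of any kind passed with 5 pools. On the same pools DESeq2 called 133 genes higher and 64 lower, and limma-voom 4 higher and 4 lower, in both cases with 0 of the 10. At an unadjusted p under 0.05, 3 of the 10 (Hmox1, Srxn1 and Cat) were higher, beside 6.2% of all genes tested. All 10 had a positive log2 fold change, beside 49.9% of all genes, and their median was 0.34 beside -0.00038 over all genes. Both C2KO pools lay above all 3 WT pools for 7 of the 10, which 13.1% of all genes did, and below them for 0 of the 10, which 14.5% did. The 10 genes are not independent of each other, since several of them moved together from fibre to fibre.

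**Figure D1:**
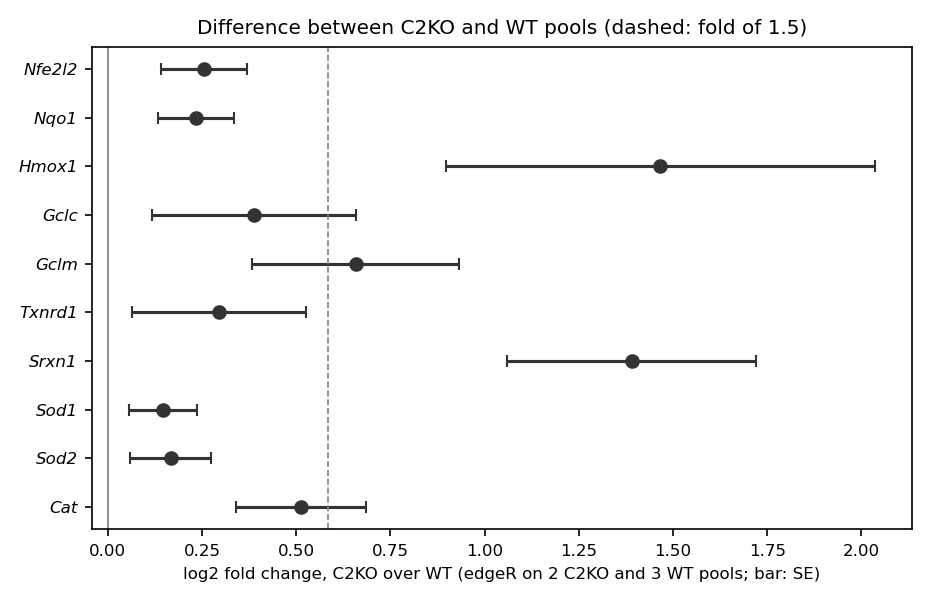
Log2 fold change of each gene, C2KO over WT, from edgeR on 2 C2KO and 3 WT pools. Points are estimates, bars are standard errors and the dashed line is a fold of 1.5. Hmox1 (1.47) and Srxn1 (1.39) lie farthest to the right, with the widest error bars.

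Nfe2l2 itself (chr2:75675519-75704641, minus strand, mm10) is the regulator of the group. It stood at 126.6 and 127.1 CPM in C2KO pools 740 and 2445, against 95.7, 103.8 and 119.5 CPM in WT pools 1, 2 and 3. The pools did not overlap, but the log2 fold change was 0.26 ± 0.11 (SE; edgeR adjusted p = 0.504). Single fibres ran from 74.7 to 257.0 CPM in pool 740 (median 123.1), from 76.8 to 143.7 CPM in pool 2445 (median 125.4) and from 65.0 to 169.9 CPM in WT (median 95.9). Of the 20 C2KO fibres, 17 lay above the WT median and 1 above the highest WT fibre.

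Srxn1, the sulfiredoxin that returns over-oxidised peroxiredoxins to work, had the smallest unadjusted p of the 10 (p = 0.00503, edgeR). Its gene lies at chr2:152105524-152111376 on the plus strand. It stood at 301.2 and 201.7 CPM in C2KO pools 740 and 2445, against 134.3, 60.7 and 92.7 CPM in WT pools 1, 2 and 3. The lower C2KO pool was still above the highest WT pool. The means were 251.4 ± 70.4 CPM in C2KO and 95.9 ± 36.9 CPM in WT (SD, n = 2 and 3 pools), a log2 fold change of 1.39 ± 0.33 (SE) with an edgeR adjusted p of 0.399.

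The pool values of Srxn1 hid a very wide range of fibres. Pool 740 ran from 21.5 to 911.5 CPM with a median of 191.8, pool 2445 from 24.4 to 550.7 CPM with a median of 150.4, and WT fibres from 13.1 to 353.5 CPM with a median of 67.4. The lowest fibres were at similar levels in both genotypes, and 6 of 20 C2KO fibres lay above the highest WT fibre. Pool 740 was split, with 5 fibres at 321.2 CPM or more and the other 5 at 62.4 CPM or less. The 3 richest fibres gave 71.9% of the Srxn1 counts of pool 740 and 63.5% of those of pool 2445, against 59.6%, 58.4% and 78.9% in WT pools 1, 2 and 3, so a few fibres set each pool's level.

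Txnrd1 (chr10:82833951-82897724, plus strand), the cytosolic thioredoxin reductase, was the most abundant of the 10 per length of exon, at 106.9 CPM per kb in C2KO and 87.2 CPM per kb in WT. It stood at 511.7 and 347.9 CPM in C2KO pools 740 and 2445, against 373.6, 265.1 and 412.4 CPM in WT pools 1, 2 and 3. The pools overlapped, and the log2 fold change was 0.30 ± 0.23 (SE; edgeR adjusted p = 0.688). Fibres ran from 183.3 to 973.0 CPM in pool 740 (median 485.2), from 159.9 to 740.9 CPM in pool 2445 (median 270.3) and from 148.7 to 966.2 CPM in WT (median 258.9). The top of the range was thus nearly the same in both genotypes, and without pool 740 the log2 fold change was -0.0083.

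Gclm and Gclc encode the modifier and catalytic subunits of glutamate-cysteine ligase, the first step of glutathione synthesis, at chr3:122245557-122267215 and chr9:77754535-77794489 on the plus strand. Gclm stood at 41.7 and 25.97 CPM in C2KO pools 740 and 2445, against 24.05, 15.3 and 25.1 CPM in WT pools 1, 2 and 3. The pools were separate by a narrow margin, the log2 fold change being 0.66 ± 0.27 (SE; edgeR adjusted p = 0.486). Gclm reached 94.0 CPM in pool 740 and 46.1 CPM in pool 2445, against 57.6 CPM in WT, with medians of 32.7 CPM in pool 740, 23.4 CPM in pool 2445 and 16.02 CPM in WT. Gclc stood at 21.04 and 12.3 CPM in C2KO pools 740 and 2445, against 16.1, 11.4 and 10.7 CPM in WT pools 1, 2 and 3. These pools overlapped, the log2 fold change was 0.39 ± 0.27 (SE; edgeR adjusted p = 0.654), and it turned to -0.047 without pool 740. A single fibre of pool 740 held 62.8 CPM of Gclc, while the next held 29.8 CPM.

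Hmox1 (chr8:75093618-75100593, plus strand), haem oxygenase-1, had the largest fitted difference of the 10 and the largest error. It stood at 208.4 and 93.8 CPM in C2KO pools 740 and 2445, against 53.7, 22.4 and 88.4 CPM in WT pools 1, 2 and 3. Pool 2445 was only just above WT pool 3, and the pool means were 151.1 ± 81.05 CPM in C2KO and 54.8 ± 33.0 CPM in WT (SD, n = 2 and 3). The log2 fold change was 1.47 ± 0.57 (SE; edgeR adjusted p = 0.468), or 0.78 without pool 740 and 1.94 without pool 2445. Fibres ran from 35.6 to 603.5 CPM in pool 740 (median 192.2), from 23.6 to 201.8 CPM in pool 2445 (median 41.9) and from 8.51 to 230.8 CPM in WT (median 29.8). All 10 fibres of pool 740 and 8 of 10 of pool 2445 lay above the WT median. Hmox1 is also a macrophage gene, and its rank correlation with the macrophage sum was 0.38 over 20 C2KO fibres and -0.040 over 27 WT fibres. Without the 6 fibres over 250 CPM of macrophage, endothelial, fibroblast and mural transcripts, 4 of pool 740, 1 of pool 2445 and 1 of WT pool 1, the log2 fold change of Hmox1 was 1.62 and that of Srxn1 also 1.62.

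Nqo1 (chr8:107388225-107403205, minus strand), the NAD(P)H quinone oxidoreductase often read as a gauge of NRF2 activity, was low and even. It stood at 15.2 and 15.3 CPM in C2KO pools 740 and 2445, against 12.2, 13.3 and 13.5 CPM in WT pools 1, 2 and 3. The pools were separate, the log2 fold change being 0.23 ± 0.10 (SE; edgeR adjusted p = 0.497). Its fibres ran from 8.73 to 21.1 CPM in C2KO and from 8.44 to 17.6 CPM in WT, a far narrower range than that of Srxn1 or Hmox1.

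Cat was the gene with the most C2KO fibres above every WT fibre, 14 of 20. Catalase is the peroxisomal enzyme that splits hydrogen peroxide, and its gene lies at chr2:103453904-103485153 on the minus strand. It stood at 47.4 and 71.8 CPM in C2KO pools 740 and 2445, against 41.7, 41.8 and 41.9 CPM in WT pools 1, 2 and 3. The WT pools were nearly identical and the C2KO pools far apart, with means of 59.6 ± 17.2 CPM in C2KO and 41.8 ± 0.0763 CPM in WT (SD, n = 2 and 3). The log2 fold change was 0.51 ± 0.17 (SE; edgeR adjusted p = 0.442).

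By fibre, Cat ran from 56.9 to 96.5 CPM in pool 2445 (median 66.1), from 33.7 to 62.5 CPM in pool 740 (median 50.9) and from 33.1 to 51.8 CPM in WT (median 41.3). All 10 fibres of pool 2445 lay above the highest WT fibre, as did 4 of 10 of pool 740. Among WT fibres Cat ran from 35.03 to 49.9 CPM in the 15 with Y-linked transcripts and from 33.1 to 51.8 CPM in the 11 with Xist, so the 2 kinds overlapped throughout. The log2 fold change of Cat was 0.78 without pool 740 and 0.19 without pool 2445, 0.83 among Xist fibres and 0.14 among Y-linked fibres. No test of the difference between the C2KO pools was possible with 1 pool of each.

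The superoxide dismutase genes lie at chr16:90220742-90226324 (Sod1) and chr17:13007839-13018119 (Sod2), both on the plus strand, and their fitted folds were 1.11 and 1.12. Sod1 stood at 48.6 and 48.2 CPM in C2KO pools 740 and 2445, against 41.5, 44.3 and 45.3 CPM in WT pools 1, 2 and 3, the log2 fold change being 0.15 ± 0.09 (SE; edgeR adjusted p = 0.607). Sod2 stood at 217.7 and 201.4 CPM in C2KO pools 740 and 2445, against 185.3, 169.1 and 205.8 CPM in WT pools 1, 2 and 3, the log2 fold change being 0.17 ± 0.11 (SE; edgeR adjusted p = 0.628). The Sod1 pools did not overlap, the Sod2 pools did. No C2KO fibre exceeded the highest WT fibre for Sod1 (64.4 CPM), and 4 of 20, all in pool 740, did so for Sod2 (224.7 CPM).

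**Figure D2:**
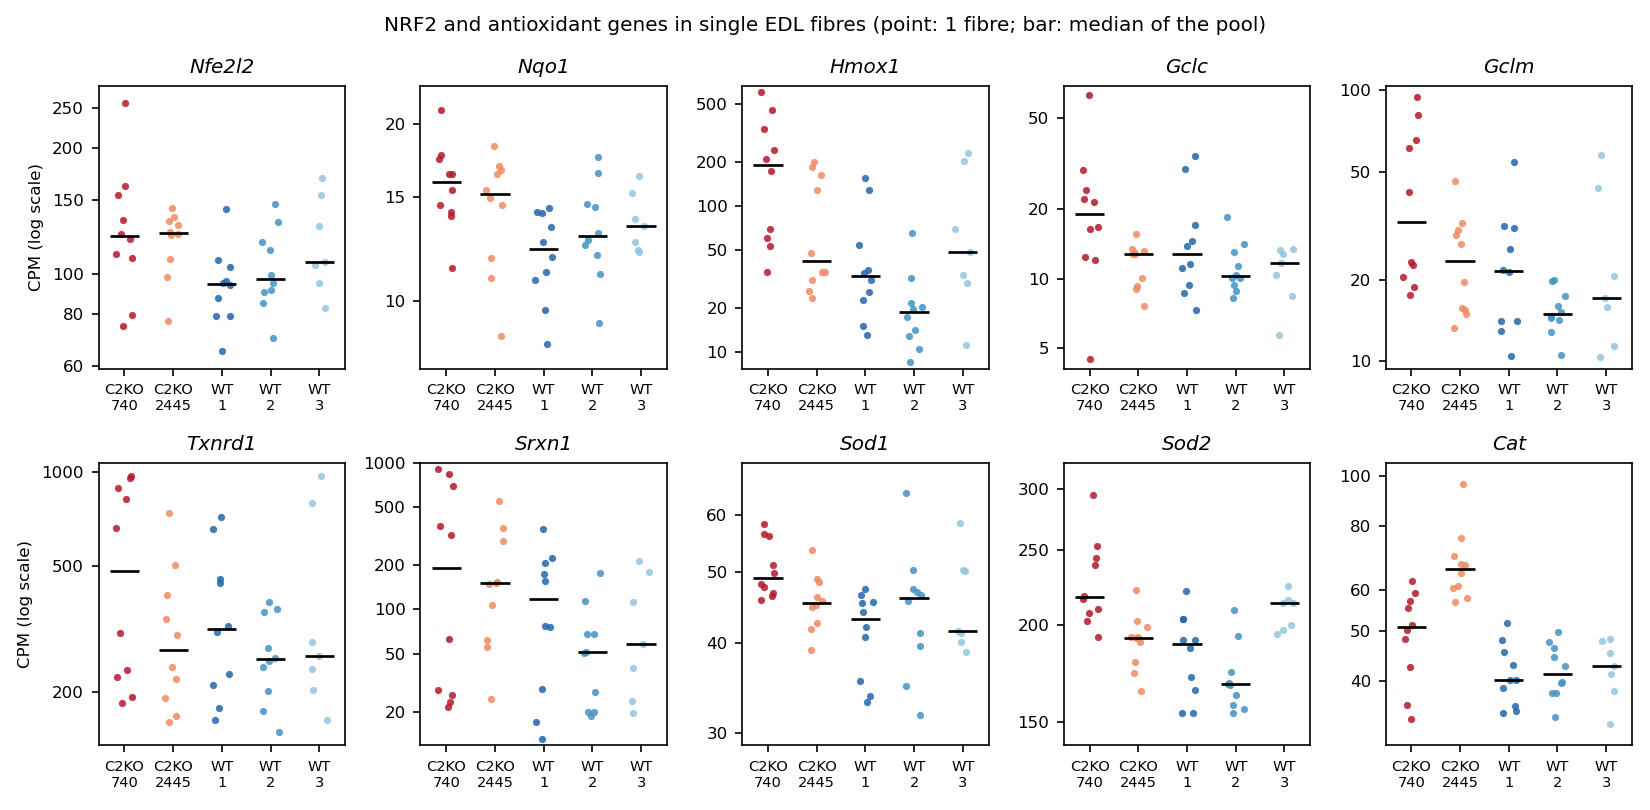
CPM of the 10 genes in each of the 47 fibres (points, log scale), by pool, with the median of each pool as a bar. Srxn1, Hmox1, Txnrd1 and Gclm spread widely within every C2KO pool and most WT pools, while Sod1, Sod2 and Nqo1 keep to narrow bands and Cat separates pool 2445 (56.9 to 96.5 CPM) from all WT fibres (33.1 to 51.8 CPM).

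The only run with both genotypes gave the same picture for a single C2KO fibre, of pool 740. That fibre held 911.5 CPM of Srxn1, against 19.8 to 214.7 CPM (median 58.1) in the 7 WT fibres of the run. It held 603.5 CPM of Hmox1, against 11.2 to 230.8 CPM (median 48.4) in WT, and 94.0 CPM of Gclm, against 10.3 to 57.6 CPM (median 17.1) in WT. It was above all 7 WT fibres also for Gclc (29.8 CPM, WT highest 13.5), Txnrd1 (973.0 CPM, WT highest 966.2), Sod2 (294.7 CPM, WT highest 224.7) and Cat (62.5 CPM, WT highest 48.2), and within their range for Nfe2l2, Nqo1 and Sod1. It was at the same time the richest fibre of pool 740 in Srxn1, Hmox1, Gclm and Txnrd1, so it does not stand for that pool.

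The genes differed widely in how much they varied between fibres of one pool. The coefficient of variation within pools, averaged over 5 pools, was 89.1% for Srxn1, 87.6% for Hmox1, 56.3% for Txnrd1, 50.6% for Gclm and 41.1% for Gclc. It was 25.4% for Nfe2l2, 16.9% for Nqo1, 15.1% for Cat, 13.5% for Sod1 and 9.93% for Sod2. The median of the 7645 genes with a mean of at least 5 CPM was 19.3%, and only 59 of them exceeded Srxn1 and 63 exceeded Hmox1. Counting error alone would give between 1.60% (Txnrd1) and 8.41% (Gclc). Thus 5 NRF2 targets varied from fibre to fibre, while Nqo1, Cat and the dismutases were more even than the median gene.

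**Figure D3:**
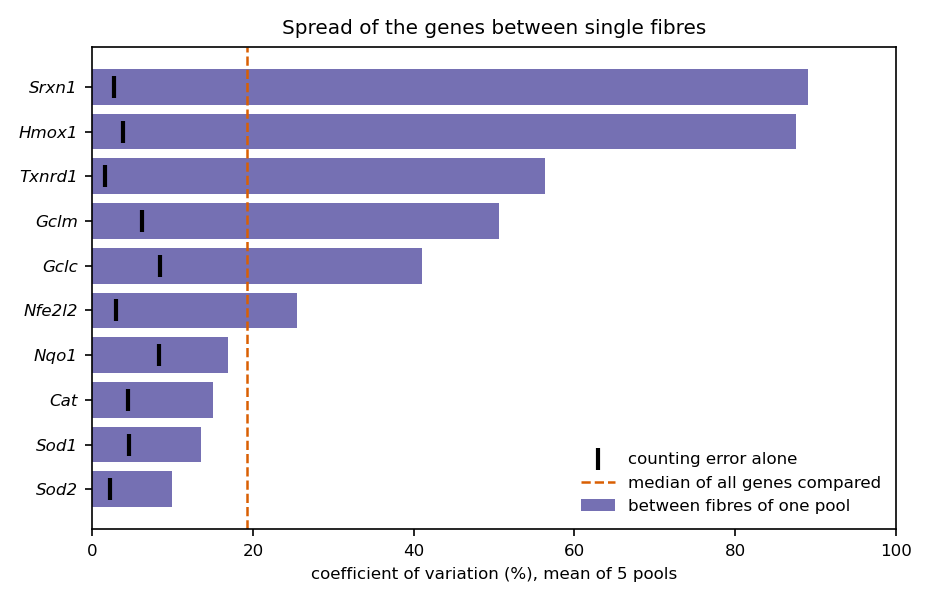
Coefficient of variation between fibres of one pool for each gene (bars, mean of 5 pools), with the value expected from counting error alone (black ticks) and the median of all genes compared (dashed line, 19.3%). Srxn1 (89.1%) and Hmox1 (87.6%) stand far beyond counting error, and Sod2 (9.93%) is the steadiest.

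Of the variable genes, Srxn1, Txnrd1 and Gclm were mostly high or low in the same fibres, and Hmox1 and Gclc followed them in C2KO more than in WT. Spearman correlations are given as a description, over 20 C2KO and 27 WT fibres that share runs and mice. Txnrd1 and Srxn1 correlated at 0.85 in C2KO and 0.86 in WT, and within every pool (0.83 and 0.93 in pools 740 and 2445, 0.92, 0.84 and 0.86 in WT pools 1, 2 and 3). Gclm and Txnrd1 correlated at 0.95 in C2KO and 0.72 in WT, with 0.39 in WT pool 2 the lowest of the 5 pools. Hmox1 and Gclm correlated at 0.90 in C2KO and 0.39 in WT, and Hmox1 with Srxn1 at 0.93 and 0.83 in pools 740 and 2445, against 0.73, 0.018 and 0.50 in WT pools 1, 2 and 3. Gclc correlated with Srxn1 at 0.60 in C2KO and 0.36 in WT, with Gclm at 0.72 in C2KO and 0.29 in WT, with Txnrd1 at 0.63 in C2KO and 0.27 in WT, and with Hmox1 at 0.72 in C2KO and 0.11 in WT. Whether these correlations differ between genotypes was not tested.

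Nfe2l2 tended to be high in the same fibres as Srxn1, Gclm and Txnrd1. It correlated with Srxn1 at 0.91 in C2KO and 0.64 in WT, with Gclm at 0.86 in C2KO and 0.67 in WT, and with Txnrd1 at 0.83 in C2KO and 0.68 in WT. With Hmox1 it correlated at 0.78 in C2KO and 0.40 in WT, and with Gclc at 0.65 in C2KO and 0.20 in WT. In pool 740 the 5 fibres richest in Srxn1 were also the 5 richest in Nfe2l2, Hmox1, Gclm and Txnrd1, and the same held of the 5 richest fibres of pool 2445. In WT pool 1 the 5 fibres richest in Srxn1 were the 5 richest in Gclm and Txnrd1, and 4 of them were among the 5 richest in Hmox1 and in Nfe2l2. In WT pool 2 the shared fibres were 4 of 5 for Txnrd1 and Nfe2l2 and 3 of 5 for Gclm and Hmox1, and in WT pool 3, with 7 fibres, 3 of 3 for Gclm and Nfe2l2 and 2 of 3 for Txnrd1 and Hmox1. Nqo1 stood outside this group, at 0.17 with Srxn1 in C2KO and 0.15 in WT. Cat correlated with Srxn1 at 0.21 in C2KO and 0.045 in WT, but at 0.58 inside pool 740 and -0.15 inside pool 2445. Sod2 correlated with Srxn1 at 0.066 in C2KO and -0.081 in WT, but at 0.59 inside pool 740 and -0.72 inside pool 2445. The values over all C2KO fibres thus joined unlike pools for Cat and Sod2.

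**Figure D4:**
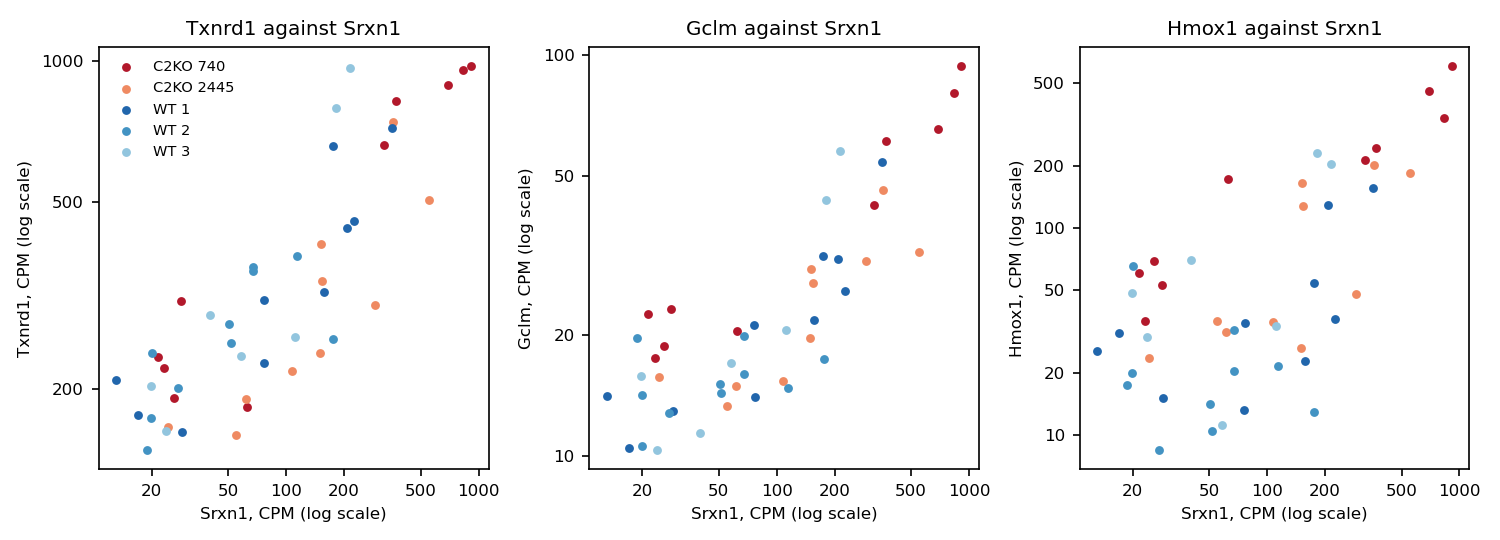
Txnrd1, Gclm and Hmox1 against Srxn1 in each of the 47 fibres (points, CPM, both axes on log scales), coloured by pool. Fibres rich in Srxn1 tend to be rich in Txnrd1 and Gclm in C2KO and WT, Hmox1 follows less closely in WT (0.018 in WT pool 2), and the fibres of pool 740 fall into a high and a low cluster.

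The measured features of the libraries moved with this group to different degrees. Total counts had rank correlations with Srxn1 of -0.053 in C2KO and -0.0018 in WT, and the number of genes detected had 0.20 in C2KO and -0.023 in WT. The fast-fibre sum correlated with Srxn1 at -0.62 in C2KO and -0.19 in WT, and with Hmox1 at -0.72 in C2KO and -0.10 in WT. The sum of 7 satellite cell transcripts, mostly Sdc4 and Cdh15, correlated with Srxn1 at 0.63 in C2KO and 0.80 in WT. Sdc4 itself followed Hmox1 across fibres (0.93 in C2KO and 0.69 in WT). This satellite cell sum is therefore no plain measure of satellite cell RNA. The fibroblast sum correlated with Srxn1 at -0.038 in C2KO and 0.0049 in WT. The macrophage sum correlated with Srxn1 at 0.45 in C2KO and 0.54 in WT, with Txnrd1 at 0.39 in C2KO and 0.65 in WT, and with Gclm at 0.45 in C2KO and 0.50 in WT. Much of that sum came from a single gene that is not reported here, so it is no plain measure of macrophage RNA. The part that these features had in the result was not tested. CPM are shares of a library, so more RNA of a gene and less RNA of all others cannot be told apart.

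The genes outside the list whose fibre pattern was most alike were found by the mean of the C2KO and WT Spearman correlations over 7645 genes. For Srxn1 they were Tubb6 (0.94), a beta-tubulin, Klhl40 (0.92), a Kelch protein of the muscle thin filament, and Hbegf (0.91), an EGF-family growth factor. For Txnrd1 they were Tubb6 (0.93), Frmd6 (0.91) and Rnf19a (0.90). For Gclm they were Tnip2 (0.86), the histone H3.3 gene H3f3b (0.86) and Pqlc1 (0.84), and for Hmox1 Fbxo30 (0.89), a muscle ubiquitin ligase subunit, Gna13 (0.87) and Gm11696 (0.83). For Nfe2l2 they were Bag3 (0.80), a co-chaperone of muscle, the cell cycle inhibitor Cdkn1a (0.80) and Pde4b (0.79), and for Gclc Arf4 (0.70), Ugcg (0.70) and Particl (0.66).

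The even genes had other partners. Sod2 was most like Higd1a (0.80), Gm12338 (0.79) and the complex I subunit Ndufs4 (0.79), and among its next 7 were the ATP synthase genes Atp5g3, Atp5f1 and Atp5c1 and cytochrome c (Cycs). Sod1 was most like the ribosomal gene Rplp2 (0.65), the proteasome activator Psme1 (0.63) and 2210408F21Rik (0.63). Cat was most like Car3 (0.64), a carbonic anhydrase of muscle, Lmod2 (0.60) and the Z-disc gene Myot (0.60), and Nqo1 like Gtf2ird1, Car2 and Narfl (0.55, 0.55 and 0.54). Sod1 and Sod2 correlated with each other at 0.53 in C2KO and 0.47 in WT, and Sod2 with Cat at -0.48 in C2KO and 0.0092 in WT. Inside the C2KO pools Sod2 and Cat correlated at 0.30 (pool 740) and 0.067 (pool 2445), so the negative value came from the difference between the pools. Depth and fast-fibre RNA moved with Sod2, which correlated with total counts at -0.62 in C2KO and -0.46 in WT and with the fast-fibre sum at -0.58 in C2KO and -0.68 in WT. Cat correlated with total counts at 0.58 in C2KO and 0.17 in WT. Fibres of pool 740 held 7648762 to 9941492 counts and those of pool 2445, higher in Cat and lower in Sod2, 9700540 to 10517887. Fibres of WT pool 3, the WT pool highest in Sod2, held 7769593 to 8759469, fewer than any of WT pools 1 and 2. These correlations over all fibres of a genotype therefore do not tell depth from pool. The part of depth in these patterns was not tested.

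**Figure D5:**
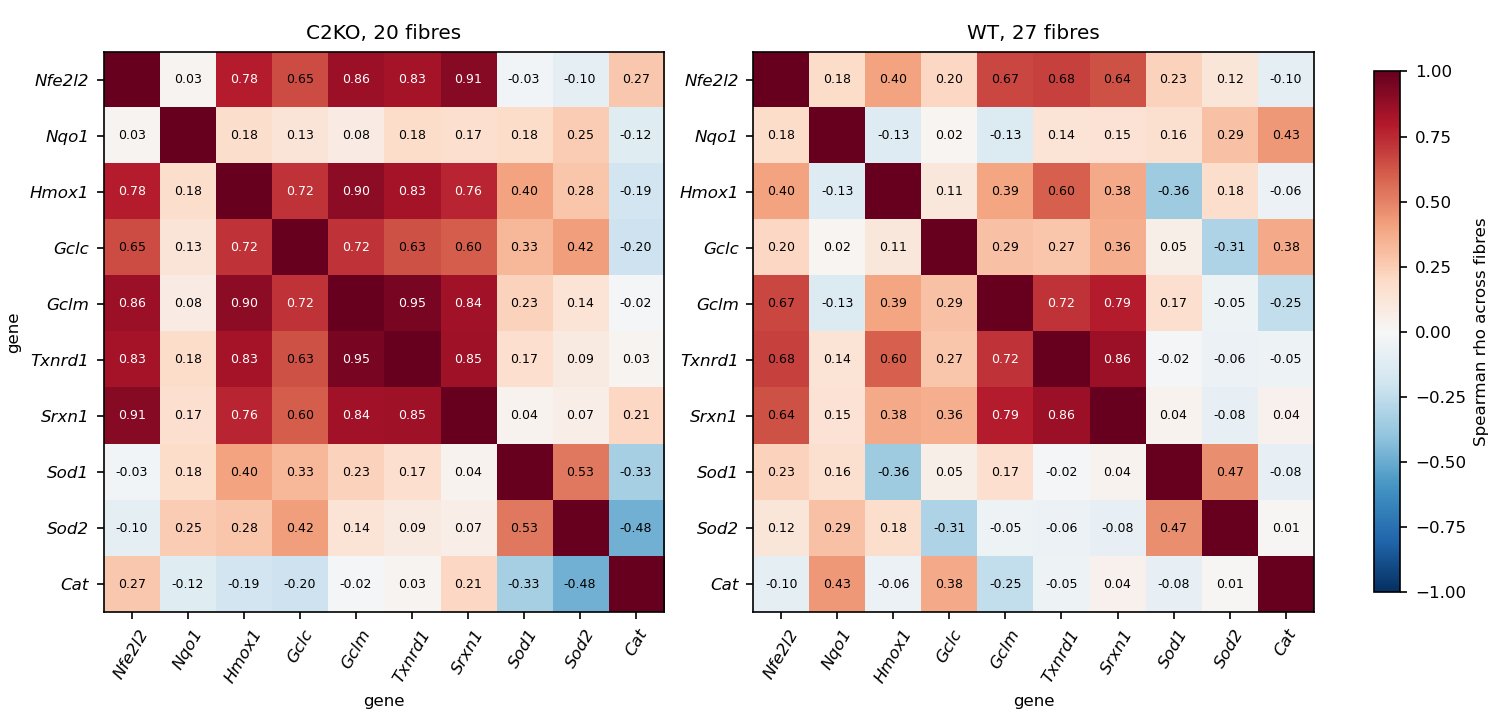
Spearman correlations between the 10 genes across 20 C2KO fibres (left) and 27 WT fibres (right), from -1 (blue) to 1 (red). Nfe2l2, Hmox1, Gclm, Txnrd1 and Srxn1 form a red block in C2KO (0.76 to 0.95), which in WT is weaker for Hmox1 (0.38 to 0.60). Over all fibres of a genotype Nqo1, Sod1, Sod2 and Cat lie outside it, while single C2KO pools can differ for Sod2 and Cat.

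In 4 further lists of the pathway 0 genes were called, beside 0.0233% of all genes called each way, so these counts do not set the lists apart from other genes. Of 15 genes that control NRF2, 13 were tested, 7 had a positive log2 fold change and 0 were called in either direction, with a median of 0.0066. Sqstm1, the autophagy receptor that competes with NRF2 for KEAP1, was the most abundant, at 1107 and 1013 CPM in C2KO pools 740 and 2445, against 978.5, 853.6 and 865.5 CPM in WT pools 1, 2 and 3 (log2 fold change 0.24 ± 0.10 SE, edgeR adjusted p = 0.486). Its pools did not overlap. Nfe2l1, a relative of NRF2, had a log2 fold change of -0.11 ± 0.12, Maff, a small MAF partner, 0.70 ± 0.31 and Gsk3b, a kinase that marks NRF2 for degradation, -0.42 ± 0.15 (SE), all short of the threshold (edgeR adjusted p of 0.787, 0.504 and 0.458).

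Of 39 further NRF2 targets, 32 were tested, 23 had a positive log2 fold change and 0 were called, with a median of 0.15. The ferritin light chain gene Ftl1, which stores the iron that haem oxygenase frees, stood at 364.3 and 262.0 CPM in C2KO pools 740 and 2445, against 194.4, 155.7 and 197.4 CPM in WT pools 1, 2 and 3. Its pools did not overlap, the log2 fold change being 0.78 ± 0.17 (SE; edgeR adjusted p = 0.391). The heavy chain gene Fth1 was at 2596 ± 34.99 CPM in C2KO and 2483 ± 164 CPM in WT, and the NADPH-making malic enzyme Me1 at 342.5 ± 17.1 CPM in C2KO and 326.9 ± 25.2 CPM in WT (SD, n = 2 and 3 pools). Ugdh had the largest fitted difference of this list (3.26 ± 1.15 SE, adjusted p = 0.454), with 52.3 CPM in pool 740 and 4.32 in pool 2445, against 6.35, 0.860 and 1.53 CPM in WT pools 1, 2 and 3. It overlapped between genotypes and was high in the pool that also held the most fibroblast RNA.

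Of 31 peroxidase and thiol-redox genes, all were tested, 18 had a positive log2 fold change and 0 were called, with a median of 0.029. The glutathione peroxidase Gpx1 stood at 91.4 and 77.5 CPM in C2KO pools 740 and 2445, against 67.2, 63.1 and 71.8 CPM in WT pools 1, 2 and 3, without overlap (0.33 ± 0.11 SE, edgeR adjusted p = 0.442). Glrx, a glutaredoxin, had a log2 fold change of 0.35 ± 0.17, the selenoprotein gene Sepw1 of 0.057 ± 0.18 and Txnip, the thioredoxin inhibitor, of 0.17 ± 0.24 (SE). A list for superoxide handling and sources held 17 genes, not all of which, such as Mfn2, act on superoxide directly. Of these, 11 were tested, 6 had a positive log2 fold change and 0 were called, with a median of 0.042. Ucp3, a mitochondrial uncoupling protein, stood at 34.3 CPM in pool 740 and 89.4 CPM in pool 2445, against 29.3, 37.3 and 38.6 CPM in WT pools 1, 2 and 3, so that, as for Cat, pool 2445 was the high one. Mfn2 (-0.19 ± 0.09) and Rac1 (0.075 ± 0.11) were the most abundant of the list.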

How the data were processed

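RNA of 20 C2KO and 27 WT single EDL fibres was sequenced. The authors deposited raw counts per gene, whole numbers for 24421 genes in 1 table per fibre. Per the file headers, read pairs were counted over exons with featureCounts 1.5.2 in strand mode 2 on mm10 gene models, without multi-mapping reads, and the submitters' processing notes list CASAVA 1.4, FastQC 0.11.2 and HISAT2 2.0.5. The strandedness of the kit was not found in the sources, so antisense reads could add to a count. No exon of the 10 genes overlapped that of another gene in the count annotation.

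Counts were summed into 2 C2KO and 3 WT pools and fitted with edgeR 4.0.16 in R 4.3.3 (quasi-likelihood test, TMM, filterByExpr, Benjamini-Hochberg over 12863 genes), with 7645 genes of at least 5 CPM used for spread and correlation. Pool values are TMM-scaled CPM, fibre values CPM of all gene counts. The p-values measure the spread between pools, not between mice, and pools may differ for technical reasons. Each WT pool held fibres with Y-linked transcripts and fibres with Xist, so each mixed fibres of more than 1 mouse. Which of the 3 WT mice gave fibres to which pool is not known. C2KO pools 740 and 2445 each held 1 kind, and whether each is 1 mouse is not known. Depth was 7648762 to 14606631 counts per fibre (median 10214951). All pairs of libraries, 201 within and 880 across pools, differed by more than counting error (chi-square per degree of freedom of at least 8.40). The scripts were tested on simulated data. The members and lists were chosen with earlier results of these data known. All 10 members are named, and from each other list the 2 most abundant tested genes and the 2 with the largest change among those of at least 5 CPM. In the marker lists these rules also give Mrc1, Cldn5, Eng, Gsn, Col3a1, Col1a1, Cspg4, Tagln, Alas2 and Fabp4, none of them called, and 1 other gene that is not reported here. Promoters came from RefSeq, GRCm38.p6. The alternatives were DESeq2 1.42.0, limma-voom 3.58.1, upper-quartile factors, other filters, leaving out each pool, fibres as samples with and without a run term, and fibres of 1 sex-linked kind.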

Additional observations from a re-analysis of the deposited data

Results flagged for a closer look

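In 5 of 50 groups of fibres (10 genes in 5 pools) 1 fibre stood far from the others of its pool by Dixon's gap test. For normally distributed values chance gives this in about 1 of 20 groups. CPM with long upper tails, such as those of Hmox1, need not keep to that share. In pool 740 of C2KO the highest Nfe2l2 fibre held 257.0 CPM and the next 162.1, and the highest Gclc fibre 62.8 CPM and the next 29.8. These 2 values belong to the same fibre. In pool 2445 of C2KO the highest Cat fibre held 96.5 CPM and the next 75.8. In WT pool 2 the highest Hmox1 fibre held 65.5 CPM and the next 32.3, and in WT pool 1 the highest Gclm fibre held 54.2 CPM and the next 31.6. The highest values of Srxn1 and Txnrd1 were not set apart in this way, since several fibres of a pool were high together.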

How the results depend on the processing

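The direction of 8 of the 10 genes was kept in all 16 other fits. Txnrd1 turned to -0.0083 and Gclc to -0.047 without C2KO pool 740, and Txnrd1 to -0.012 among fibres with Xist. The cause was not tested. Leaving out 1 pool at a time gave log2 fold changes of -0.0083 to 0.55 for Txnrd1, -0.047 to 0.73 for Gclc, 0.78 to 1.99 for Hmox1, 1.07 to 1.71 for Srxn1 and 0.19 to 0.78 for Cat. No fit on pools called any of the 10. With the 47 fibres as samples, edgeR called 3 of them (Hmox1 1.61, Gclm 0.71 and Srxn1 1.43, adjusted p of 0.0032, 0.0234 and 0.0146), and limma-voom called 2 (Hmox1 1.66 and Gclm 0.65). Beside these, 3.08% of 10156 genes were called higher by edgeR and 2.42% by limma-voom. With a run term none of the 10 was called, while the log2 fold changes were larger, at 2.78 for Hmox1, 1.93 for Gclm and 3.32 for Srxn1 (adjusted p of 0.204, 0.159 and 0.197). That fit compares the genotypes within the run that holds both, where C2KO has 1 fibre. Treating fibres of a mouse as replicates makes p-values too small.

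Over all genes, where 3 were called higher and 3 lower, the counts were 133 and 64 with DESeq2, 6 and 5 with no filter on low counts, 313 and 172 with edgeR on 47 fibres, 246 and 228 with limma-voom on them, 27 and 14 with the run term, and 265 and 21 among fibres with Y-linked transcripts. Without 1 pool they ran from 0 to 318 higher and from 1 to 40 lower, at 318 and 40 without C2KO pool 2445, 6 and 9 without C2KO pool 740, 0 and 1 without WT pool 1 or WT pool 2, and 1 and 1 without WT pool 3. Leaving out fibres rich in RNA of other cells, chosen after seeing the data, gave 7 higher and 4 lower. No paired analysis was possible because the labels give no replicate numbers that tie a C2KO fibre to a WT fibre.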
